A study of Mus musculus with 6 samples.

Results

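Immediate early genes are switched on within minutes of a stimulus, from factors already present in the cell, and in neurons their transcripts are widely read as a trace of recent synaptic activity. Most encode transcription factors that act on slower genes, while some encode proteins that act directly at the synapse or that shut down the kinase signal. Calcium entry and neurotrophin signals reach them mainly through the transcription factors CREB, SRF and MEF2. The 10 genes described here were taken by symbol from the gene count table of the study: the AP-1 subunits Fos, Fosb and Junb, the zinc finger factors Egr1 and Egr2, the neuronal factor Npas4, the nuclear receptor Nr4a1, the nuclear protein gene Ier2, the synaptic effector Arc and the phosphatase gene Dusp1. All 10 were among the 52390 genes listed, and all 10 were among the 21844 that held enough counts to be tested. GENCODE vM21 (GRCm38) annotates all 10 as protein-coding, with Junb (84974484 to 84978718) and Ier2 (84661331 to 84662852) on chromosome 8 and Arc (74669083 to 74672570) and Nr4a1 (101254269 to 101274795) on chromosome 15. Fos (85473890 to 85477273) lies on chromosome 12, Fosb (19302696 to 19310051) on 7, Egr2 (67535475 to 67542188) on 10, Dusp1 (26505590 to 26562128) on 17 and Npas4 (4984355 to 4990316) on 19. The longest transcript of no member shared a stretch of 100 bases, read in the same direction, with an annotated transcript of a different gene.

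The study asked which mouse genes respond when AP1AR-DT, a human long non-coding RNA also called AC109347.1, is expressed in mouse neurons. Male C57BL/6 mice received an adeno-associated virus in the medial prefrontal cortex (mPFC) at 8 weeks of age: 3 control mice received a vector with no insert, and 3 AP1AR-DT-OE mice received the same vector with the lncRNA under the human synapsin I promoter, a promoter specific to neurons. All mice were otherwise wild type and all carried a vector that encodes a green fluorescent protein. The labels give the tissue only as brain, and bulk RNA was sequenced, so fewer cells of a type and less RNA per cell cannot be told apart. Control libraries carry the mouse numbers 1 to 3, whereas the AP1AR-DT-OE columns could not be tied to single mice and are called A, B and C. The level of the transgene was not analysed here.

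The libraries held between 42061721 and 54668294 counts, and mitochondrial genes took 7.20% to 9.86% of the counts in controls and 5.75% to 6.80% in AP1AR-DT-OE. The libraries also differed in the markers of brain regions. Slc17a7, the vesicular glutamate transporter of cortical excitatory neurons, stood at 28.2, 3.86 and 233 normalised CPM (counts scaled to the same library size) in controls 1, 2 and 3, and at 231, 463 and 87.2 in AP1AR-DT-OE A, B and C. Neurod6, a transcription factor of the same neurons, was almost absent from control 2 at 0.0803 and from AP1AR-DT-OE C at 0.571, although the study describes the tissue as mPFC. The source of these differences was not tested. The hypothalamic hormone gene Oxt reached 281 in control 2 but at most 1.66 in AP1AR-DT-OE mice, and the summed choroid plexus markers reached 4036 in control 3 against 59.2 to 81.0 in the other 5 libraries. The count of immediate early genes past the thresholds is therefore given with all mice and with single libraries left out. Other counts of these genes are given with all 6 mice only.

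Within the controls the 10 genes fell in the same order in every case, with control 1 highest, control 2 next and control 3 lowest. For comparison, control 1 was the highest control for 32.6% of all genes tested. The share of all genes with the full order was not computed. The promoter sequences of the genes are shown here as background, and their part in the levels was not tested. RefSeq windows (GRCm38.p6; 250 bases before to 50 after a transcription start) were matched by symbol for 7 of the 10 genes, with 11 windows in all, 5 of them for Egr2. No window was matched for Arc, Egr1 and Ier2, so none was searched. Each stretch shown lies upstream of the start used and in no GENCODE exon. Those of Egr2, Nr4a1 and Dusp1 lie within the annotated bounds of the gene, which begin further upstream. Each sequence below runs 5′ to 3′ on the strand of the gene, and Fos, Junb, Egr2 and Nr4a1 are shown over the 250 bases before the start. Dusp1 is shown over the first 200 of these, since the bases nearer the start lie in an annotated exon. Capitals mark the core of the cAMP response element (CRE, bound by CREB), TGACG or its reverse complement CGTCA, together with the palindrome TGACGTCA in Dusp1 and the CArG box (bound by SRF) in Egr2.
Fos, chr12:85473640-85473889, plus strand: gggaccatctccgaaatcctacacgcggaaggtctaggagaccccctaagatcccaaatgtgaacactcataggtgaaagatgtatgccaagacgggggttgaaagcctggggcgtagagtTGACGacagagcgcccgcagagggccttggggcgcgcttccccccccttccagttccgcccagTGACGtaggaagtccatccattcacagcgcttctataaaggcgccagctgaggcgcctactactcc
Junb, chr8:84978749-84978998, minus strand: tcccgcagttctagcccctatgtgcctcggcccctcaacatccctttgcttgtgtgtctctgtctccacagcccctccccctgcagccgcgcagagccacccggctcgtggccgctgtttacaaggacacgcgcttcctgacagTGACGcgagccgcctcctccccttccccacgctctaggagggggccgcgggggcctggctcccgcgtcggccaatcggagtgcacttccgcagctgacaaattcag
Egr2, chr10:67537619-67537868, plus strand: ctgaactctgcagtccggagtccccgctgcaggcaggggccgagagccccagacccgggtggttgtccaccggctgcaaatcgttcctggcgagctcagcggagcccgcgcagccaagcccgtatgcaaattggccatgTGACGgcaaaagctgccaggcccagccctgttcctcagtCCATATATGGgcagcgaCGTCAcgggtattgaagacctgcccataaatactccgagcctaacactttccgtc
Nr4a1, chr15:101266596-101266845, plus strand: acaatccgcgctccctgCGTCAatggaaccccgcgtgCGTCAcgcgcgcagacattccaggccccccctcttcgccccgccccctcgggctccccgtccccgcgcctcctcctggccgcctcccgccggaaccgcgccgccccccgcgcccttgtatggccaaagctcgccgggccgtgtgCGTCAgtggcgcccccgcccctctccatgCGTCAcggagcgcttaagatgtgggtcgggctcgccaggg
Dusp1, chr17:26508523-26508722, minus strand: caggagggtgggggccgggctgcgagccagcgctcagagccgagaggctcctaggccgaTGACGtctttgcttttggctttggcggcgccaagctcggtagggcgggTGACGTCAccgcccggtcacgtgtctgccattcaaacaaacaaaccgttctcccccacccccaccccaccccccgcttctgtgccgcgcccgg

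The CRE core stood in at least 1 window of all 7 genes and in 9 of the 11 windows, against 23.0% of the 27025 genes and 20.8% of the 32851 windows in the table. Of these 9 windows, 3 are overlapping Egr2 windows that hold the same matches. Fos held it at positions -129 and -66 from its start, Junb at -106, Fosb at -60, and Npas4 at -179 and -169. Nr4a1 held the most in a single window, with 4 matches at -233, -213, -69 and -40. The full palindrome occurred in Dusp1 alone, beginning at -143, and in 2.03% of all genes. A CArG box occurred in Egr2 alone, at -72 in the window shown, and in 1.81% of all genes. Neither the AP-1 motif TGANTCA nor the core of the NRF1 motif, CGCATGCG, was found in a window of these genes, against 8.97% and 2.07% of all genes. Both strands were searched, TGACG lies within TGACGTCA, and a match is only a match of letters.

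None of the 10 genes passed the thresholds of the study (P under 0.05 and an absolute Log2FC above 0.32) when all 6 mice were compared by the edgeR quasi-likelihood test. No gene was called higher, against 5.1% of all genes tested, and none lower, against 7.15%. At an unadjusted P under 0.05 the count was also 0 by edgeR and by DESeq2, and 1 by limma-voom (Fosb, against 5.39% of all genes called higher by that tool), and the edgeR adjusted P ranged from 0.417 for Dusp1 to 0.868 for Egr2. The groups overlapped for 10 of 10 genes, whereas they did not overlap for 22.4% of all genes tested. The median Log2FC was 0.32 against -0.014 over all genes, and it was positive for 8 of 10 genes against 48.5% of all genes. The exact permutation test for single genes gave P between 0.2 and 0.8, where 3 mice against 3 allow no less than 0.1.

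**Figure D1:**
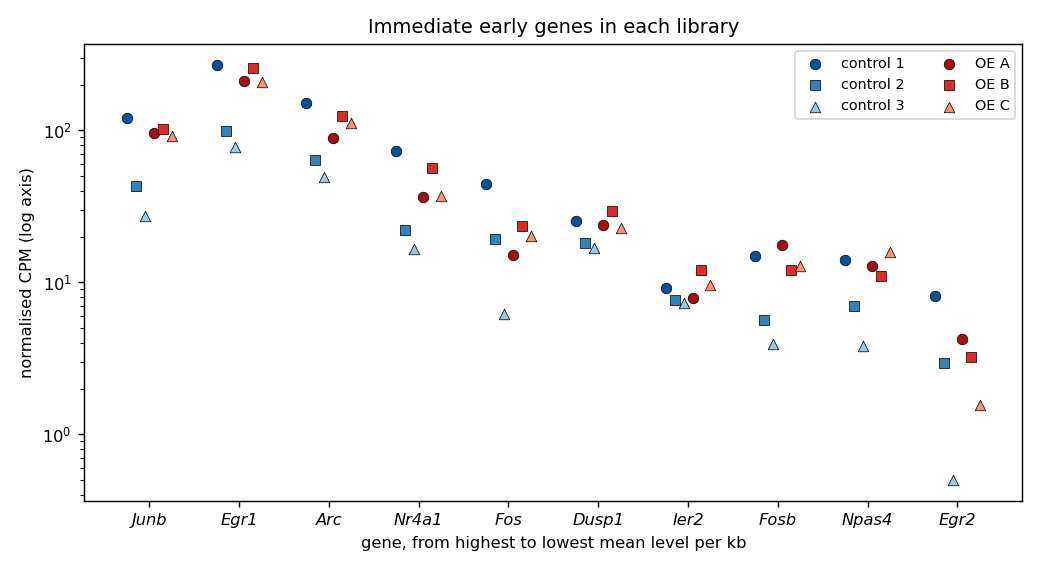
Normalised CPM on a log axis for the 10 immediate early genes, ordered by mean level per kb, with 1 point per library (blue, controls 1 to 3; red, AP1AR-DT-OE A to C). Control 3 is the lowest point for all 10 genes, and controls 2 and 3 lie below every AP1AR-DT-OE library for 8 of them.

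The levels of control 1 lay inside or above those of the AP1AR-DT-OE mice, and the levels of controls 2 and 3 lay mostly below them. Control 3 was the lowest of the 6 libraries for 10 of 10 genes, and control 1 was the highest for 6. The shares of all genes tested with these positions were not computed. Control 1 exceeded every AP1AR-DT-OE library for 6 of 10 genes, against 30.1% of all genes tested. Controls 2 and 3 were both below every AP1AR-DT-OE library for 8 of 10 genes, against 18.0% of all genes tested. The exceptions were Fos and Egr2, for which control 2 lay within the AP1AR-DT-OE range.

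Among the AP-1 subunits, Fos, the classical activity marker, was measured at 44.4, 19.4 and 6.19 normalised CPM in controls 1, 2 and 3. In AP1AR-DT-OE A, B and C it was measured at 15.2, 23.5 and 20.1. Fos thus varied 7.17-fold within the controls and 1.55-fold within the AP1AR-DT-OE mice, and its group difference was smaller than that spread (Log2FC = -0.25 ± 0.604 SE, 95% interval -1.67 to 1.17, edgeR adjusted P = 0.867). Fosb, whose truncated product accumulates under repeated stimulation, stood at 14.99, 5.62 and 3.90 in controls and at 17.5, 12.001 and 12.8 in AP1AR-DT-OE. AP1AR-DT-OE mice lay above controls 2 and 3, but control 1 fell between them (Log2FC = 0.79 ± 0.478 SE, edgeR adjusted P = 0.452). Junb, a Jun-family partner of Fos proteins, stood at 120, 43.0 and 27.1 in controls and at 95.8, 102 and 91.9 in AP1AR-DT-OE. It differed only 1.11-fold between the AP1AR-DT-OE mice but 4.42-fold between the controls, and the group difference did not pass (Log2FC = 0.61 ± 0.491 SE, edgeR adjusted P = 0.572). Exons of Junb overlap exons of Prdx2 on the other strand, and the library kit does not mark strand, so reads from that stretch cannot be told apart.

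The zinc finger factors differed from each other in level but not in the order of the controls. Egr1, which couples synaptic activity to plasticity genes, was measured at 270, 98.4 and 77.1 normalised CPM in controls and at 211, 257 and 207 in AP1AR-DT-OE. Control 1 was the highest library and controls 2 and 3 were the lowest (Log2FC = 0.60 ± 0.442 SE, 95% interval -0.44 to 1.64, edgeR adjusted P = 0.536). Egr2, known for its role in hindbrain and myelin development and also induced by activity, was the least abundant gene at 8.09, 2.93 and 0.500 in controls and 4.22, 3.25 and 1.56 in AP1AR-DT-OE. It spanned 16.2-fold within the controls and 2.70-fold within AP1AR-DT-OE, on deposited counts of only 25 to 329 per library (Log2FC = -0.35 ± 0.845 SE, 95% interval -2.34 to 1.65, edgeR adjusted P = 0.868).

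Npas4, a neuron-specific factor induced by calcium entry, stood at 14.0, 6.99 and 3.82 normalised CPM in controls and at 12.7, 11.1 and 15.7 in AP1AR-DT-OE. AP1AR-DT-OE C held the highest level and control 1 the next (Log2FC = 0.67 ± 0.433 SE, edgeR adjusted P = 0.477). Nr4a1, an orphan nuclear receptor, stood at 72.9, 22.0 and 16.6 in controls and at 36.6, 56.3 and 37.2 in AP1AR-DT-OE. Every AP1AR-DT-OE value lay between control 1 and control 2 (Log2FC = 0.22 ± 0.536 SE, edgeR adjusted P = 0.866). Ier2, a small nuclear protein gene, hardly varied within the controls, at 9.12, 7.69 and 7.33, and stood at 7.90, 12.1 and 9.62 in AP1AR-DT-OE. It was the only one of the 10 genes whose log2 spread was larger in AP1AR-DT-OE than in controls (Log2FC = 0.30 ± 0.195 SE, 95% interval -0.16 to 0.76, edgeR adjusted P = 0.487).

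The genes that act outside the nucleus or on signalling followed the same order. Arc, which drives the internalisation of AMPA receptors at active synapses, stood at 151, 63.9 and 49.3 normalised CPM in controls and at 89.3, 124 and 112 in AP1AR-DT-OE. Control 1 again exceeded every AP1AR-DT-OE mouse, and controls 2 and 3 again lay below them (Log2FC = 0.30 ± 0.397 SE, 95% interval -0.63 to 1.24, edgeR adjusted P = 0.738). Dusp1, a phosphatase that inactivates MAP kinases, stood at 25.1, 18.2 and 16.7 in controls and at 23.8, 29.5 and 22.8 in AP1AR-DT-OE. It had the smallest P of the 10 genes and did not pass (Log2FC = 0.34 ± 0.187 SE, 95% interval -0.10 to 0.78, edgeR adjusted P = 0.417). Dusp1 exons overlap exons of Ergic1 on the other strand, with the same limit as for Junb.

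The spread between control mice was wide for most of these genes. The median SD of log2 normalised CPM was 0.974 over the 3 controls and 0.272 over the 3 AP1AR-DT-OE mice, compared with 0.237 and 0.196 over all genes tested. The SD was larger in controls for 9 of 10 genes, against 58.3% of all genes tested. Egr2 had the largest SD in both groups (1.90 and 0.714), Junb the smallest in AP1AR-DT-OE (0.0755), and Ier2 the smallest in controls (0.164). The edgeR biological coefficient of variation had a median of 0.407 for the 10 genes and 0.227 for all genes tested, and 8 of the 10 exceeded the latter. These are descriptions of 3 mice per group and were not tested.

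**Figure D2:**
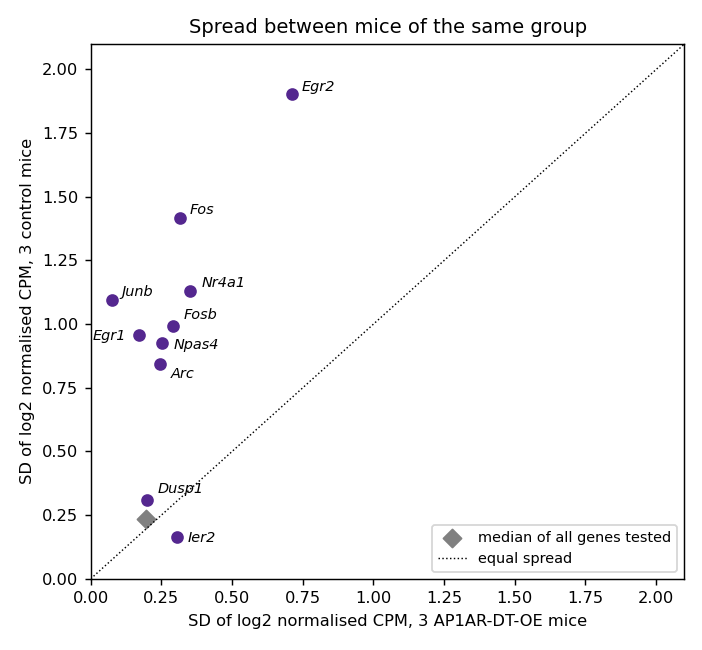
SD of log2 normalised CPM over the 3 AP1AR-DT-OE mice (x axis) and the 3 controls (y axis) for each immediate early gene (purple), with the median over all genes tested (grey diamond) and the line of equal spread (dotted). All genes but Ier2 lie above the line, Egr2 highest at 1.90.

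Leaving out control 1 changed the call for most of these genes. Of the 6 analyses that each left out 1 library, this was the only one that called any of the 10. Fosb (Log2FC = 1.57 ± 0.262 SE), Junb (1.46 ± 0.210 SE), Egr1 (1.36 ± 0.163 SE), Npas4 (1.29 ± 0.309 SE), Nr4a1 (1.17 ± 0.249 SE), Arc (0.94 ± 0.189 SE) and Dusp1 (0.54 ± 0.158 SE) then passed the unadjusted threshold by edgeR and were higher in AP1AR-DT-OE. These are 7 of 10 genes, against 6.36% of all genes tested without control 1, and none was lower, against 8.61%. Control 1 was the highest control for all 10 genes, so leaving it out was bound to raise their differences. The genes also varied together over the libraries (median pairwise r 0.840), so the 7 calls are not separate results. Fos (0.62 ± 0.475 SE), Egr2 (0.81 ± 0.769 SE) and Ier2 (0.40 ± 0.218 SE) did not pass. After adjustment over all genes none of the 10 passed, and the smallest edgeR adjusted P was 0.145 for Egr1. Without control 2, without control 3, and without any single AP1AR-DT-OE library, 0 of 10 genes passed. Control 1 held the largest share of mitochondrial counts (9.86%) and the smallest total, and the part of these in its levels was not tested.

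**Figure D3:**
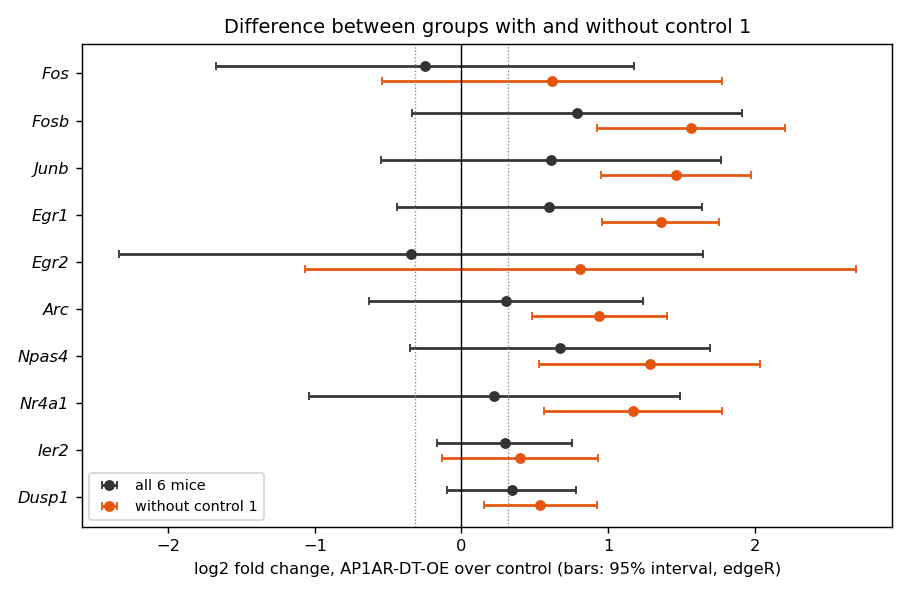
Log2FC of AP1AR-DT-OE over control for each gene with its 95% interval from edgeR, with all 6 mice (grey) and without control 1 (orange); dotted lines mark the threshold of 0.32 in either direction. With all 6 mice every interval crosses 0, and without control 1 the intervals of 7 genes lie above 0 while those of Fos, Egr2 and Ier2 still cross it.

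Relative to each other, the genes mostly kept their order of abundance. Per kb of the longest annotated transcript, Junb led with a mean of 44.2 normalised CPM per kb over the 6 mice (SD 20.1), followed by Egr1 at 41.6 (SD 18.0), Arc at 32.2 (SD 12.5) and Nr4a1 at 15.8 (SD 8.29). Fos at 10.2 (SD 6.03) and Dusp1 at 9.81 (SD 2.02) came next, and the lowest levels were those of Ier2 at 5.89 (SD 1.17), Fosb at 2.94 (SD 1.41), Npas4 at 2.83 (SD 1.19) and Egr2 at 1.16 (SD 0.888). Among neighbours in this order, only Ier2 and Fosb had ranges that did not overlap. Within single libraries, Egr1 exceeded Arc, Arc exceeded Nr4a1, Dusp1 exceeded Ier2, Ier2 exceeded Fosb and Npas4 exceeded Egr2 in 6 of 6. Nr4a1 exceeded Fos in 5 of 6, Junb exceeded Egr1 and Fosb exceeded Npas4 in 4 of 6, and Fos exceeded Dusp1 in 2 of 6. Of the 45 ratios between pairs of genes, 2 did not overlap between the groups, and both held Arc. Of the single genes tested, 22.4% did not overlap, and no such share was computed for ratios over all genes. Arc over Egr1 was 0.560, 0.650 and 0.639 in controls and 0.423, 0.485 and 0.543 in AP1AR-DT-OE (exact permutation P = 0.1, the smallest possible, adjusted over the 45 pairs to 0.783). Arc over Junb was 1.26, 1.49 and 1.82 in controls and 0.932, 1.22 and 1.22 in AP1AR-DT-OE, with the same P values; with 3 mice against 3, no ratio could pass 0.05.

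The likeness of the genes over the 6 libraries was high but uneven, and the points share library composition. The Pearson r of log2 normalised CPM ranged from 0.327 to 0.991 over the 45 pairs, with a median of 0.840. Each gene against the mean of the other 9 gave the highest r for Junb (0.979) and the lowest for Ier2 (0.636). Among 17569 genes outside every list, the 5 most like the mean of the 10 were Tmx2 (r = 0.989), Sh3rf3 (0.988), Zbtb34 (0.988), 4921525O09Rik (0.986) and Ogdhl (0.984), over 6 libraries. Sh3rf3 stood at 36.3, 20.3 and 14.8 normalised CPM in controls and at 28.3, 27.4 and 26.2 in AP1AR-DT-OE. Tmx2 ran only from 150 to 190, Zbtb34 from 12.3 to 17.7 and Ogdhl from 90.4 to 110, whereas 4921525O09Rik ran from 2.28 to 6.98. The r takes no account of the size of the change.

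A list of 46 other rapid response genes was measured beside the 10. Of the 45 tested, 5 were called higher and 2 lower, against the same 5.1% and 7.15% of all genes, with a median Log2FC of 0.20, and none passed after adjustment over all genes by edgeR (smallest adjusted P = 0.295). By DESeq2, Ccn2 (adjusted P = 0.000168) and Klf2 (adjusted P = 0.00591) passed after adjustment. Those called higher were the Kruppel-like factor gene Klf2 (Log2FC = 1.03 ± 0.219 SE), the matricellular protein gene Ccn2 (1.82 ± 0.361 SE), Ier5 (0.37 ± 0.118 SE), Ier3 (0.41 ± 0.171 SE) and the clock gene Per1 (0.44 ± 0.183 SE). Those called lower were Rgs2, a regulator of G-protein signalling (-2.68 ± 0.948 SE), and Tiparp (-0.57 ± 0.241 SE). Rgs2 stood at 90.5, 79.1 and 3.84 normalised CPM in controls and at 9.63, 6.42 and 11.0 in AP1AR-DT-OE, so control 3 was the lowest library for this gene as well. Without control 3 it passed after adjustment (Log2FC = -3.22, edgeR adjusted P = 0.0195), whereas it was not called without any other single library or by limma-voom with all 6 mice.

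Of the Fos, Jun, Egr and Nr4a families, 7 further genes were tested, and they did not move as a block. They are given here together after their values were seen. Fosl2 stood at 38.2, 15.5 and 4.72 normalised CPM in controls and at 27.2, 28.5 and 28.8 in AP1AR-DT-OE, in the control order of the 10 genes. Egr4 also held this control order, at 81.3, 33.1 and 25.6, with 75.9, 102 and 81.8 in AP1AR-DT-OE, where B and C exceeded control 1. Egr3 was lowest in control 2 rather than control 3, at 96.3, 36.5 and 47.0 in controls and 115, 93.2 and 78.9 in AP1AR-DT-OE. Nr4a2 ran the other way within the controls, at 4.65, 7.27 and 18.6, and stood at 6.83, 9.20 and 7.32 in AP1AR-DT-OE. Nr4a3 stood at 18.95, 10.7 and 14.6 in controls and at 16.8, 21.9 and 15.5 in AP1AR-DT-OE. The Jun relatives differed little between the controls, with Jun at 65.6 to 85.8 and Jund at 403 to 431, against 64.5 to 78.8 and 444 to 548 in AP1AR-DT-OE. None of the 7 passed with all 6 mice (edgeR adjusted P from 0.342 for Jund to 0.856 for Jun). Without control 1, Egr4 (Log2FC = 1.56), Fosl2 (1.48) and Egr3 (1.20) were called higher, and Jun, Jund, Nr4a2 and Nr4a3 were not called.

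Slower activity-regulated genes and upstream signalling genes were counted in the same fit, against 5.1% of all genes called higher and 7.15% lower. Of 20 slower genes, Gpr3, a receptor gene, was called higher (Log2FC = 0.61 ± 0.218 SE) and Syt4, a synaptotagmin gene, was called lower (-0.42 ± 0.123 SE), with a median of 0.16. Bdnf, the neurotrophin gene, ran against the order of the 10 genes, at 1.47, 9.02 and 15.5 normalised CPM in controls and 3.56, 5.21 and 3.37 in AP1AR-DT-OE, and did not pass (edgeR adjusted P = 0.474). Without control 1, Bdnf was called lower (Log2FC = -1.60, edgeR adjusted P = 0.233), among 4 of the 20 slower genes called lower and 4 called higher. In the same comparison, 10 of the 45 rapid genes were called higher and 2 lower, and 8 of the 32 upstream genes higher and 1 lower, against 6.36% and 8.61% of all genes. Penk and Tac1, which are called higher there among the slower genes, are also on the list of striatal markers. Of 32 upstream genes, 5 were called higher and 1 lower, with a median Log2FC of 0.15. The higher ones were the factor gene Srf (0.43 ± 0.132 SE), its coactivator gene Mrtfa (0.39 ± 0.161 SE), the CREB coactivator gene Crtc1 (0.42 ± 0.126 SE), Mef2d (0.33 ± 0.106 SE) and the kinase gene Camkk2 (0.53 ± 0.168 SE). Creb1, which encodes CREB, was called lower (-0.53 ± 0.145 SE), at 37.4, 39.0 and 43.2 in controls and 29.4, 30.9 and 22.3 in AP1AR-DT-OE.

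Most of these calls were lost with a correction for GC content. Of the 15 genes called in the 3 lists, Ccn2 (Log2FC = 1.82), Klf2 (0.74), Camkk2 (0.42) and Rgs2 (-2.52) still passed after the correction. The genes that no longer passed included Srf (0.10), Mef2d (0.19), Crtc1 (0.25), Mrtfa (0.18) and Creb1 (-0.23). The transcripts of the 10 immediate early genes had a GC content of 51.4% to 62.6%, above the median of 49.4% of the genes tested, and their median Log2FC was 0.15 after the correction. Of the reference genes, Actb stood at 777 to 950 normalised CPM in controls and at 414 to 928 in AP1AR-DT-OE (edgeR adjusted P = 0.421), and Gapdh at 41.8 to 55.2 and 50.2 to 59.5 (edgeR adjusted P = 0.470).

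Markers of other regions were read in the same libraries, as the mean of centred log2 normalised CPM per list. The 10 immediate early genes scored 0.74, -0.42 and -1.15 in controls 1, 2 and 3 and 0.23, 0.42 and 0.17 in AP1AR-DT-OE A, B and C. The 8 striatal neuron markers scored 0.65, -1.35 and -0.95 in controls and 1.52, 0.07 and 0.06 in AP1AR-DT-OE. Controls 2 and 3 were thus lowest on both lists, as they also were on the list of other rapid genes (-0.27 and -0.13) and among inhibitory neuron markers. For 8 of 8 striatal markers, control 1 was the highest control, against 32.6% of all genes tested. Controls 2 and 3 lay below every AP1AR-DT-OE library for 8 of 8, against 18.0% of all genes tested, and none of the markers was at 0. Their summed level ran from 353 to 1354 normalised CPM in controls and from 854 to 2388 in AP1AR-DT-OE. With all 6 mice 0 of 8 passed (edgeR adjusted P from 0.337 to 0.576, median Log2FC 0.98), against 5.1% of all genes called higher and 7.15% lower. A difference between the lists was that striatal markers peaked in AP1AR-DT-OE A, where 9 of the 10 immediate early genes did not.

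The inhibitory neuron list came near this order, whereas the endothelial list shared only its low controls 2 and 3. The 8 inhibitory neuron markers scored 0.08, -0.12 and -0.58 in controls and 0.19, 0.46 and -0.04 in AP1AR-DT-OE, with summed levels of 1045 to 2114 and 1899 to 2163. Control 1 was the highest control for 6 of the 8, against 32.6% of all genes tested. Controls 2 and 3 lay below every AP1AR-DT-OE library for 5 of the 8, against 18.0% of all genes tested. The 6 endothelial markers scored -0.16, -0.16 and -0.28 in controls and 0.08, 0.45 and 0.07 in AP1AR-DT-OE. All 3 controls thus lay below every AP1AR-DT-OE library in this score, and control 1 was the highest control for only 1 of the 6 markers.

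The excitatory, hypothalamic, thalamic and choroid plexus lists ordered the libraries differently. The 10 excitatory neuron markers scored -0.47, -1.59 and 0.78 in controls and 0.85, 1.29 and -0.86 in AP1AR-DT-OE, with summed levels of 1375 to 2433 and 2017 to 3547, and AP1AR-DT-OE C held less of them than control 3 while every immediate early gene stood higher there. The 10 hypothalamic markers summed to 536 to 1738 in controls and 660 to 867 in AP1AR-DT-OE, with Oxt at 0 in control 1 and in AP1AR-DT-OE B and Hcrt at 0 in AP1AR-DT-OE A and C. The thalamic score was highest in control 3 (2.35), as was the choroid plexus score (3.98). The part of these regional differences in the levels of the immediate early genes was not tested.

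**Figure D4:**
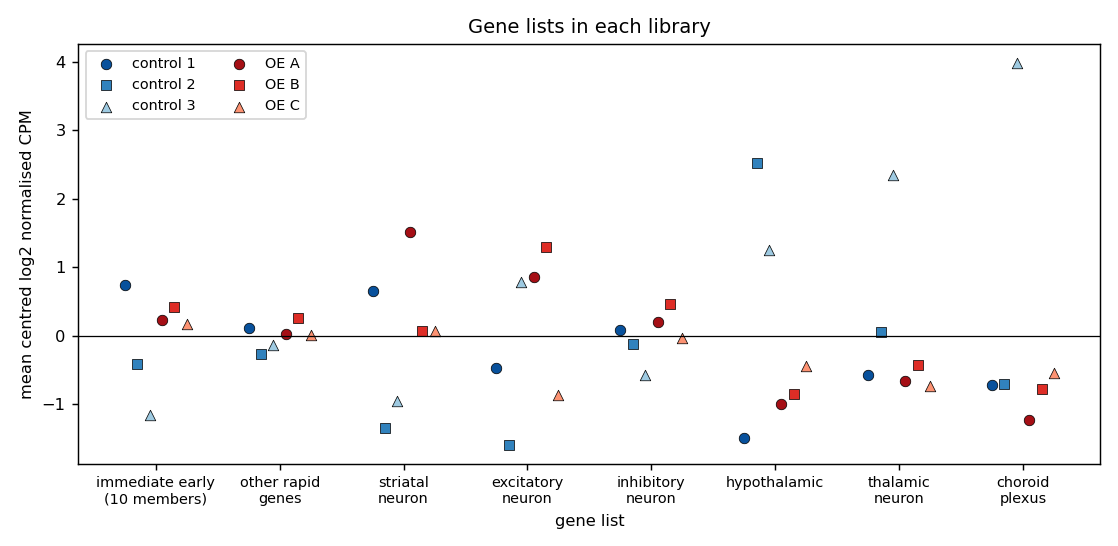
Mean centred log2 normalised CPM per library (blue, controls 1 to 3; red, AP1AR-DT-OE A to C) for the immediate early genes, the other rapid genes and the markers of 6 regions or cell types; 0 is the mean over the 6 libraries. Controls 2 and 3 are lowest for the immediate early genes, the other rapid genes and the striatal and inhibitory neuron markers, whereas control 3 is highest for thalamic and choroid plexus markers and control 2 for hypothalamic ones.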

How the data were processed

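RNA-seq was performed on brain tissue from 3 control and 3 AP1AR-DT-OE mice. The authors deposited raw counts per gene in one table, together with columns of their own comparison (fold changes and P values), which were not used. The study's methods name Bowtie2, GRCm38, StringTie and DESeq2 for these samples, whereas the submitters' processing notes list other tools and an older build, so the route to the counts is uncertain. Counts were fitted over the whole table with edgeR 4.0.16 in R 4.3.3 (filterByExpr, TMM, quasi-likelihood test, two-sided, Benjamini-Hochberg over 21844 genes), and thresholds were P under 0.05 and an absolute Log2FC above 0.32, as in the study. Normalised CPM used TMM-scaled totals, with 0.1 added before log2. Depth was 42061721 to 54668294 counts, and intervals are at 95%. Mice are the replicates. Exact permutation tests enumerated all splits of 3 against 3.

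The members and gene lists were chosen with earlier results of these data known. Genes named in the text were the 10 members, list genes past the thresholds (at most the 8 with the smallest P), Actb, Gapdh and the 5 genes most like the members with a mean normalised CPM of at least 1; region markers, Egr3, Egr4, Fosl2, Jun, Jund, Nr4a2, Nr4a3 and Bdnf were named after their values were seen. Fosl1 and Rps6ka4 were not tested. Annotation and transcript lengths came from GENCODE vM21 and promoter windows from RefSeq. Alternatives were DESeq2 1.42.0, limma-voom (limma 3.58.1), other size factors, other filters on low counts, mitochondrial genes left out, GC and length corrections, an adjusted threshold and single libraries left out. The fits were also run on simulated counts in which each gene had the same variation between mice in both groups. That setting leaves out the unequal spread of the 10 genes, so it does not test the fits for them.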

Additional observations from a re-analysis of the deposited data

How the results depend on the processing

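With all 6 mice, limma-voom called 1 of the 10 immediate early genes higher (Fosb, Log2FC = 1.06, against 5.39% of all genes) and gave positive differences for Fos (0.20) and Egr2 (0.38). Leaving out 1 library at a time, 0 to 7 genes were called higher, the 7 without control 1, and none lower. In these analyses Fos ranged from -0.69 to 0.62, Egr2 from -0.85 to 0.81 and Nr4a1 from -0.12 to 1.17. The count of 15 other activity-regulated genes past the thresholds became 6 with the GC correction (4 of the 15 and 2 others), 20 with DESeq2, 0 at an edgeR adjusted P under 0.05 (2 by DESeq2, Ccn2 and Klf2, and 1 without control 3, Rgs2), and 8 to 29 with 1 library left out (8 without AP1AR-DT-OE A or B, 29 without control 1). For single genes under all alternatives, 135 results kept direction and side of the threshold, 8 passed it and 7 changed sign. Egr2 held only 25 counts in control 3, so its level there (0.500 normalised CPM) is less precise. The other genes held at least 191 counts in every library. No paired analysis was run, because the groups are different mice and the labels give no pairs between them.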
